A study of Mus musculus with 41 samples.

Results

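The nuclear genes of the mitochondrial respiratory chain were followed in mouse androgenetic haploid embryonic stem cells (AG-haESCs), cells that carry 1 paternal set of chromosomes and that can replace sperm in an oocyte. Members were all gene symbols of the RNA-seq files that start as subunits of complex I (Ndufa, Ndufb, Ndufc, Ndufs, Ndufv), complex II (Sdha to Sdhd), complex III (Uqcr), complex IV (Cox4 to Cox8) or the ATP synthase (Atp5) and whose mean over the 13 libraries was at least 1 FPKM (FPKM counts sequenced fragments relative to transcript length and library depth). Of 24028 symbols, 84 matched the names and 83 passed the level, 36 in complex I, 4 in complex II, 8 in complex III, 17 in complex IV, 15 in the ATP synthase, and Ndufa4, which carries a complex I name but is now assigned to complex IV. The other 2, Atp5s and Atp5sl, are named like subunits but are assembly factors. Ndufa4l2, a relative of Ndufa4, was counted in complex I by its name alone. The level chose the members, so that being expressed is no finding: the nearest symbol outside was Cox6a2 (mean of 0.523 FPKM) and the nearest inside were Cox8c (1.09), Cox8b (1.32) and Cox4i2 (1.36).

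All cells were C57BL/6 haploid mESCs, and every library of 1 line is another passage of that clone or culture, not another line. Wild-type 2i-14 cells were kept in 2i/L, a serum-containing medium with LIF and inhibitors of Mek and Gsk3β, and sequenced at p18, p39 and p50. Wild-type TSa2i-14 (p22, p47, p54) and TSa2i-C57 (p9, p58) were derived in 2 steps with a Src inhibitor in place of the Mek inhibitor and then kept serum-free (TSa2i/L). The paper lists TSa2i-14 as C57BL/6 with actin-EGFP and TSa2i-C57 as C57BL/6 without it. The line 2i-O48 lacks H19-DMR and IG-DMR, which are differentially methylated regions of imprinted loci, and 2i-O48-TKO lacks these and the gene H19; each was sequenced once in 2i/L. These 3 lines from 2i/L were also sequenced after 5 passages in the serum-free medium SF/a2i/L (below, switched). Between 2i/L and TSa2i/L the inhibitor, the serum, the basal medium and the cell line all differ and cannot be told apart. The labels do not say that libraries came from separate cultures, so p-values measure the spread between these libraries. The name of 2i-O48-TKO points to an origin from 2i-O48, which the sources used here do not state. These lines may thus not be independent of each other.

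The respiratory chain passes electrons from NADH (complex I) and succinate (complex II) through complex III to oxygen at complex IV, and complexes I, III and IV pump protons across the inner mitochondrial membrane. The ATP synthase, complex V, lets the protons flow back and makes ATP. Most subunits come from nuclear genes and a few from mitochondrial DNA, and several complex IV subunits exist as isoforms that differ between tissues. Mouse embryonic stem cells in the naive state are known to use both respiration and glycolysis.

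The files give no counts. FPKM values of 3700 single-transcript genes fall on whole multiples of what 1 fragment is worth, which places the depth at about 12700000 (TSa2i-C57 p9) to 19700000 fragments (2i-O48). Between 9258 and 10320 symbols reached 1 FPKM. The 10 pluripotent-cell markers were detected in every library, the lowest single value being 10.7 FPKM. The 15 fibroblast markers, which the feeder layer would bring, summed to 309.9 to 415 FPKM in 2i-14 p39, TSa2i-14 p54 and TSa2i-C57 p58 and to 63.7 to 281.7 in the other 10 libraries; Col1a2, Col3a1, Postn and Prrx1 were at 0 in both DMR-deleted 2i/L libraries. The 6 primitive endoderm markers summed to at most 2.98 FPKM. FPKM summed to 651106 to 735364 per library without microRNA loci, while with them the switched 2i-14 library reached 2146932. Fewer cells of a type and less RNA per cell cannot be told apart in such libraries.

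Respiratory chain transcripts were abundant in all 13 libraries. Together the 83 members held between 8.29% (2i-O48 in 2i/L) and 11.2% (switched 2i-O48) of the FPKM summed without microRNA loci. FPKM is per length, so levels are ranked between genes here, although members with near-identical pseudogene copies are uncertain. How the amplification of the RNA acted on single genes was not tested. Complex IV had the highest member, Cox6a1, at 2989 FPKM on average, followed by Uqcr10 of complex III at 2796, Cox6b1 at 2678 and Cox8a at 2632. The highest ATP synthase member was Atp5k (2287 FPKM), the highest complex I member Ndufa7 (2206 FPKM) and the highest complex II member Sdhb (560.3 FPKM). All of these are small accessory subunits except Sdhb, the iron-sulphur subunit of succinate dehydrogenase.

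**Figure D1:**
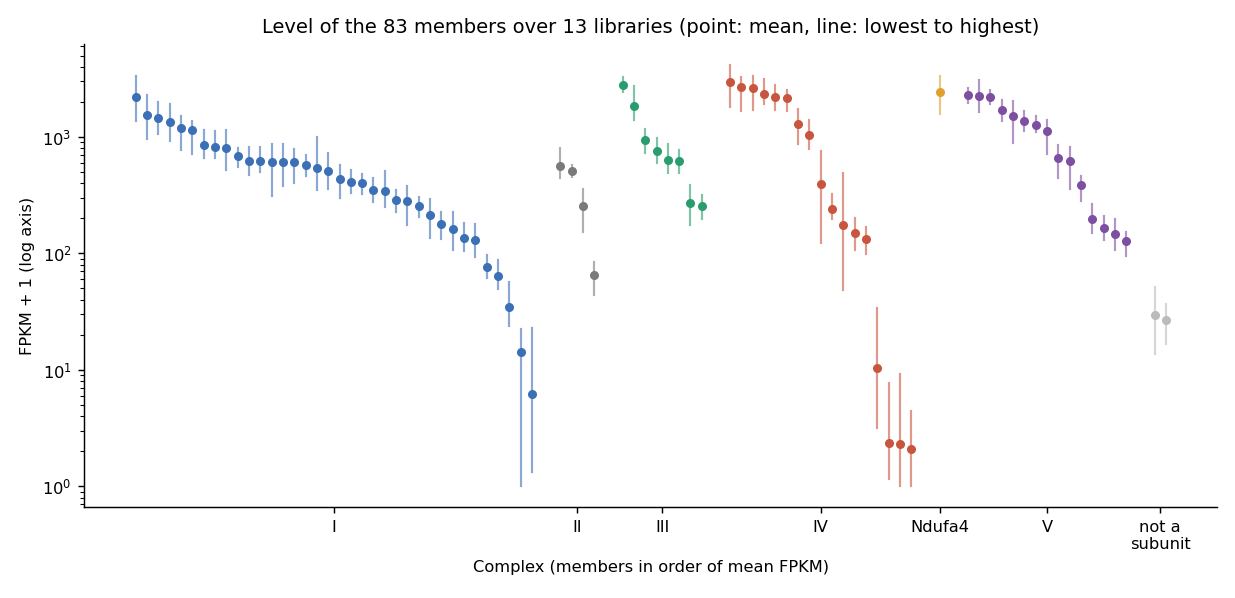
Level of each member as FPKM + 1 on a log axis, grouped by complex and ordered by mean; the point is the mean over 13 libraries and the line runs from the lowest to the highest library. Within complex IV the means run from 2989 FPKM (Cox6a1) down to 1.09 (Cox8c), and the 2 longest lines belong to Ndufs5 and Ndufa4l2, both listed under complex I.

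Core subunits differed in level between complexes, being low in Ndufs1, Ndufv1 and Sdha and near the highest members in Cox4i1 and Cox5a. Their range over the libraries in log2(FPKM + 1) ran from 0.60 (Cox4i1) to 1.18 (Atp5b). Ndufs1, the large iron-sulphur subunit of the electron input arm of complex I, lay between 48.8 and 86.9 FPKM with a median of 58.1, and Ndufv1, which binds NADH, between 103 and 182 (median of 136). Sdha, which oxidises succinate, was the lowest complex II member, at 42.9 to 83.1 FPKM. These 3 members were thus low in every library, the switched ones included. In complex III the core protein Uqcrc1 lay between 599.8 and 971 FPKM, the Rieske iron-sulphur protein Uqcrfs1 between 173 and 384, and Uqcrc2, the lowest of its complex, between 197 and 314. Cox4i1 and Cox5a of complex IV reached 1682 to 2549 and 1903 to 3120 FPKM, and Atp5b, the catalytic beta subunit of the ATP synthase, 892 to 2024. The lowest ATP synthase member was Atp5h of the stalk, at 94.5 to 152.5 FPKM. The assembly factors Atp5s (12.6 to 50.9) and Atp5sl (15.8 to 36.0 FPKM) lay below every ATP synthase subunit.

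The 6 members with the widest range were scarce ones, apart from Cox7a1. Ndufs5, an accessory subunit of complex I, was at 5.61, 14.9 and 5.80 FPKM in 2i-14, 21.6 in 2i-O48-TKO and 0.000145 in 2i-O48, and between 5.78 and 19.2 in the other 8. The value in 2i-O48 corresponds to no fragment, so this library stood apart from all others. Ndufa4l2, a relative of Ndufa4 known as a hypoxia-responsive gene, was at 21.9 FPKM in 2i-O48-TKO, 16.8 in TSa2i-14 p47 and at most 7.35 in the rest. Cox4i2, the lung-type partner of Cox4i1, was at 6.67 FPKM in 2i-O48-TKO and at most 2.68 elsewhere. The same 2i-O48-TKO library was thus highest for both, and Cox4i2 made up at most 0.321% of the Cox4i1 and Cox4i2 sum. Cox8b, the muscle-type isoform of Cox8a, was at 0 in all 5 libraries in 2i/L, at 8.29, 1.64, 3.64 and 2.08 in TSa2i-14 p47, TSa2i-14 p54, TSa2i-C57 p9 and TSa2i-C57 p58, at 0 in TSa2i-14 p22, and at 0, 0.485 and 0.969 FPKM after the switch. For a transcript of 362 bp, 3 fragments are worth 0.421 to 0.652 FPKM, depending on the library. Cox8b reached the level of a member only with the TSa2i/L libraries, so its difference between media is a description.

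The level of the median member differed between libraries. Relative to each gene's mean over the 13 libraries, on the log2(FPKM + 1) scale, the median member stood at −0.23 in 2i-O48 and −0.18 in 2i-14 p18, and at 0.26, 0.23 and 0.16 in the switched 2i-O48, 2i-O48-TKO and 2i-14 libraries. The 3 switched libraries were thus among the 4 highest, the other one being TSa2i-C57 p9 (0.19). The 2 passages of TSa2i-C57 differed as much, with p58 at −0.11. The 5 TSa2i/L libraries lay between −0.12 and 0.19 and the 5 in 2i/L between −0.23 and 0.02, so these overlapped. Genes at 1 FPKM or more in every library did not follow the members: their median deviation was −0.14 in switched 2i-O48 and 0.06 in 2i-O48. Complexes I and IV varied most, from −0.29 (2i-14 p18) to 0.34 (switched 2i-O48) and from −0.42 (2i-O48) to 0.32 (TSa2i-C57 p9), while complex II stayed between −0.16 and 0.15. The complexes of 1 library did not always lie on the same side. In switched 2i-O48 complex II was at −0.16, and in TSa2i-14 p22 complex II was at 0.12 and complex IV at −0.25. Whether members vary together was not tested.

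**Figure D2:**
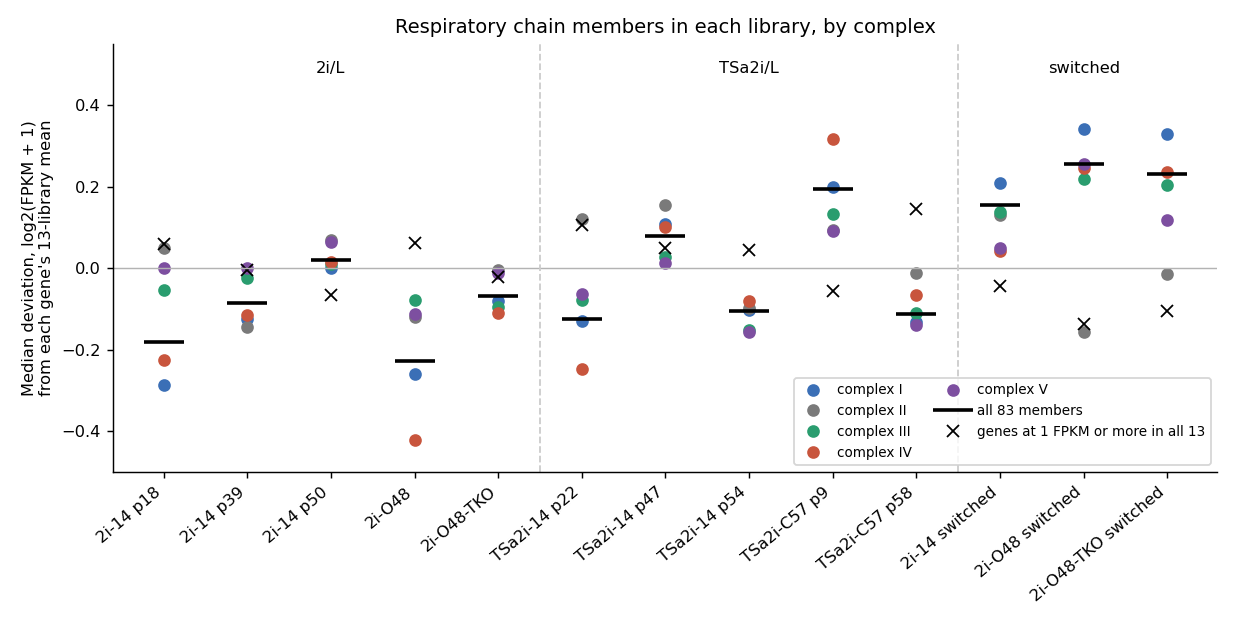
Median deviation of the members of each complex (coloured points), of all 83 members (bars) and of genes at 1 FPKM or more in all libraries (crosses) from their 13-library means, in log2(FPKM + 1), by library. The 3 switched libraries have member medians of 0.16 to 0.26 while their all-gene medians are below 0.

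Between wild-type cells in TSa2i/L (n = 5) and in 2i/L (n = 3) few members differed. With limma on log2(FPKM + 1) and Benjamini-Hochberg adjustment over the 10387 genes tested, 4 of the 82 members tested passed an adjusted p of 0.05, all of them lower in TSa2i/L (Cox7a1, Cox8c, Uqcrh and Atp5g1) and none higher. Over all genes 786 passed, or 7.57%, with 5.72% higher and 1.85% lower. The median member change was 0.08, beside 0.07 over all genes. Complex I had the highest median (0.15, 28 of 36 members above 0), complex IV stood at 0.10 (11 of 16) and the ATP synthase at −0.01 (7 of 15). The complex IV members tested include Cox8b, which passed the filter through TSa2i/L alone, and Cox8c, which did so through 2i/L alone. Centring each library on its median gene moved the median of all genes from 0.07 to −0.03 and that of the members to −0.02, so no direction can be given for the members as a whole. Complex I stood at 0.04 under this centring (20 of 36 above 0) and at 0.16 with quantile normalization (29 of 36). Member groups did not overlap in 14 cases, 8 higher and 6 lower in TSa2i/L, where 16.5% of all genes were separate, 11.8% higher and 4.72% lower.

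Cox7a1 showed the widest difference between media among the abundant members. It encodes the heart and muscle form of complex IV subunit 7a, located at chr7:30969190-30971047 (mm9), whereas Cox7a2 encodes the form of most other tissues. Cox7a1 was at 170, 226 and 293 FPKM in 2i-14 at p18, p39 and p50, and at 54.6, 47.1 and 65.2 in TSa2i-14 and 105 and 94.7 in TSa2i-C57. Every TSa2i/L library was below every 2i/L library. The means were 230 ± 61.6 (SD, n = 3) and 73.4 ± 25.4 FPKM (SD, n = 5), a log2 change of −1.67 (SE 0.27, limma adjusted p = 0.00526). In 17 alternatives that could be computed the call was kept, the change lying between −2.01 and −1.48. Cox7a2 had 881, 964 and 1177 FPKM in 2i-14 and 853 to 1165 in TSa2i/L, so the groups overlapped. The share of Cox7a1 in the Cox7a1 and Cox7a2 sum was therefore 16.2% to 19.96% in wild-type 2i/L cells and 4.22% to 9.99% in TSa2i/L. In the DMR-deleted cells in 2i/L the share was 16.6% (2i-O48) and 34.0% (2i-O48-TKO), where Cox7a1 reached 490 FPKM.

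After the switch Cox7a1 did not behave alike in the 3 lines. In 2i-14 it was at 293 FPKM at p50 and 64.5 after 5 passages in SF/a2i/L, a log2 difference of −2.17, which put it among the TSa2i/L values. The line 2i-O48-TKO went from 490 to 254 (−0.95), whereas 2i-O48 went from 157 to 251 (0.67). The 2 switched DMR-deleted libraries stayed above every TSa2i/L library. Across the 3 pairs limma gave −0.81 with an adjusted p of 0.339, so no change was called.

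The sequences before the transcription start are shown for Cox7a1 and Cox7a2, since the muscle form passed the test and its partner did not, and for the Atp5g genes, of which 1 passed. RefSeq (GRCm38.p6) promoter windows were found for 69 of the 83 members, and the last 120 bases before the start are printed 5′ to 3′ on the gene's strand. The words of 3 motifs were searched on both strands of the 250 bases before the start: NRF1 (GCATGCGC), the ETS core (CCGGAAG) and YY1 (AAGATGGCG); capitals mark a match.
Cox7a1 (chr7:30184051-30184170, plus strand): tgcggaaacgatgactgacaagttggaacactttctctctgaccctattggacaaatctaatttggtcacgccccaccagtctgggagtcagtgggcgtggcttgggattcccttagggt
Cox7a2 (chr9:79759854-79759973, minus strand): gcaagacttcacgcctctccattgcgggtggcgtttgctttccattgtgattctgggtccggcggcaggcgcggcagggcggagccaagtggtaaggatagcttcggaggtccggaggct
Neither window held 1 of the 3 motifs. Over 250 bases Cox7a1 had 4 CG dinucleotides and Cox7a2 had 14, the median over the members being 14. The NRF1 word was present in 11.6% of the 69 member windows (8), in 2.33% of all 27025 windows and in 5.27% of the 7623 whose gene averaged 1 FPKM or more. The ETS word was present in 15.9% of member windows, 7.1% of all and 15.8% of those of expressed genes, and the YY1 word in none of the members and 0.592% of all.

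The 3 Atp5g genes encode the same mature ring subunit c of the ATP synthase from different precursors, and their transcripts did not differ in the same direction. Atp5g1 was at 725, 730 and 722 FPKM in wild-type 2i/L cells and at 588, 543, 539, 535 and 447 in TSa2i/L, with no overlap. Its means were 726 ± 3.80 (SD, n = 3) and 531 ± 51.3 (SD, n = 5), a log2 change of −0.46 (SE 0.12, limma adjusted p = 0.0362). This call was lost in 11 of 17 alternatives, among them each of the 3 that left out 1 passage of 2i-14, where the change stayed at −0.46 to −0.45, and median centring, where it was −0.56. Atp5g2 was the other way round, at 129, 146 and 130 FPKM in 2i/L and 166, 210, 184, 198 and 177 in TSa2i/L. The groups did not overlap, but the change of 0.46 (SE 0.13) had a limma adjusted p of 0.0537. Atp5g3, which held most of the sum, was at 2497, 2446 and 2444 in 2i/L and 1965 to 2156 in TSa2i/L (−0.24, limma adjusted p = 0.114). The sum of the 3 genes was 3297 to 3350 FPKM in wild-type 2i/L cells and 2634 to 2910 in TSa2i/L, and the share of Atp5g2 in it 3.84% to 4.40% and 5.71% to 7.23%.

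Of the 3 windows only that of Atp5g2 held a motif, the NRF1 word on both strands in 1 palindromic run. The sequence at the start of the Atp5g1 window was not found in the GENCODE vM1 transcripts of that gene.
Atp5g1 (chr11:96075632-96075751, minus strand): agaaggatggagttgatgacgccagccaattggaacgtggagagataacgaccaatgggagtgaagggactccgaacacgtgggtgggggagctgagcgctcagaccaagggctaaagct
Atp5g2 (chr15:102671048-102671167, minus strand): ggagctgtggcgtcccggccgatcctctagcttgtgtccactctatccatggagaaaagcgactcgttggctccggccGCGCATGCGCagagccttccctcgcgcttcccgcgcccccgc
Atp5g3 (chr2:73911327-73911446, minus strand): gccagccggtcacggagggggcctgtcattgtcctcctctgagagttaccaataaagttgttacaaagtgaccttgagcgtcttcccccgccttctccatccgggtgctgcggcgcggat

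Uqcrh, the hinge protein that helps cytochrome c1 meet cytochrome c in complex III, was at 1073, 1133 and 1168 FPKM in 2i-14 and 799, 779, 724, 821 and 786 in TSa2i/L. All 5 TSa2i/L libraries were lower, and the log2 change was −0.52 (SE 0.10, limma adjusted p = 0.0102). The DMR-deleted 2i/L libraries (974 and 963) lay between the groups, and the switched libraries (1030, 1068 and 937) did so too. The call was lost without 2i-14 p39 (change of −0.52) and without the 3 libraries high in fibroblast RNA (−0.49), the latter an alternative chosen after seeing the data, so the size stayed close to that with all libraries.

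Cox8c, a testis-type isoform of Cox8a, was close to the detection limit. It was at 1.47, 2.35 and 2.91 FPKM in 2i-14, and the DMR-deleted 2i/L libraries had 3.44 and 1.45. It was at 0, 0, 0.832, 0.721 and 0 in TSa2i/L and at 0, 0.728 and 0.250 after the switch. Each 2i/L library was therefore above all 8 others, at an implied 9.43 to 32.2 fragments. Cox8c passed the level filter only through the 2i/L libraries in both comparisons, so its calls (log2 change of −1.34, limma adjusted p = 0.0127, and −1.43, adjusted p = 0.0237, after the switch) are given as a description.

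**Figure D3:**
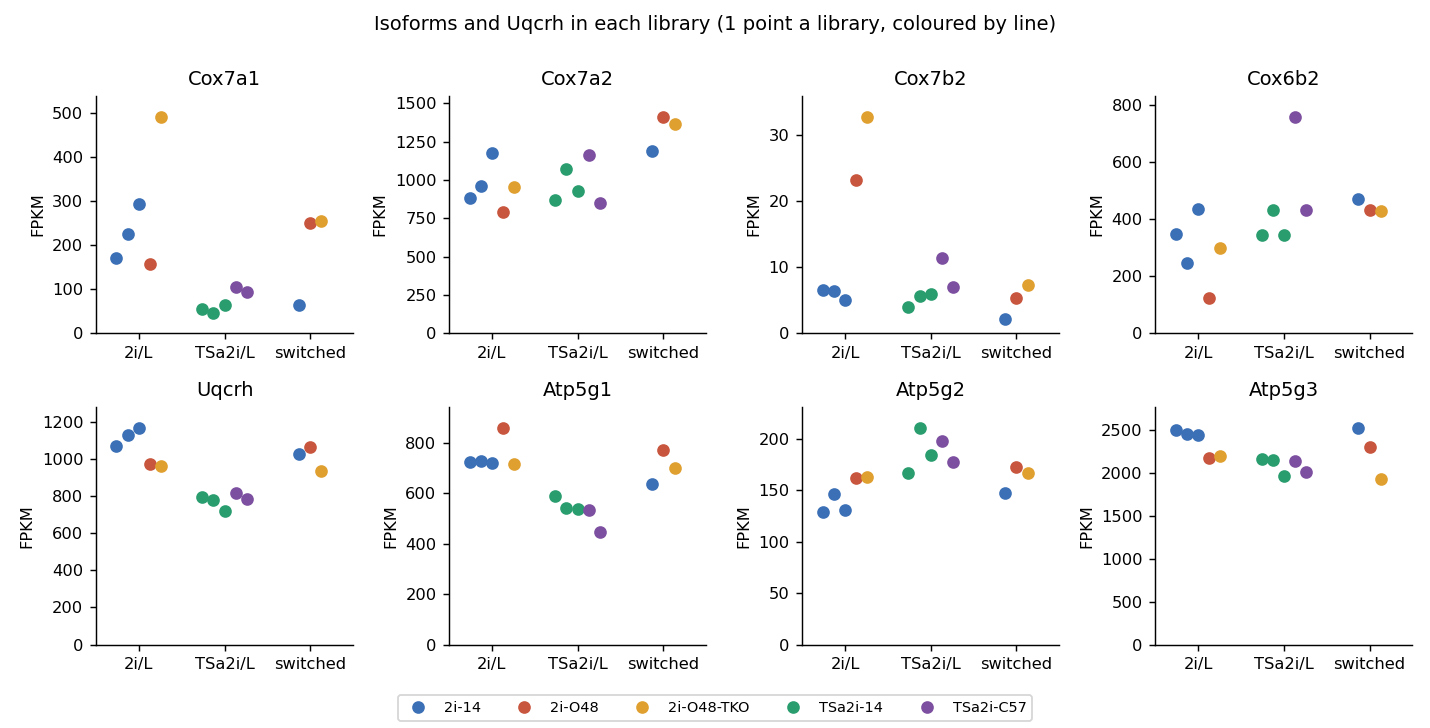
FPKM of 8 members in each library, 1 point per library, by medium and coloured by cell line, with axes from 0. Cox7a1, Uqcrh and Atp5g1 are lower in all 5 TSa2i/L libraries than in the 3 of 2i-14 in 2i/L and Atp5g2 is higher, while Cox7b2 is highest in the 2 DMR-deleted libraries in 2i/L.

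**Figure D4:**
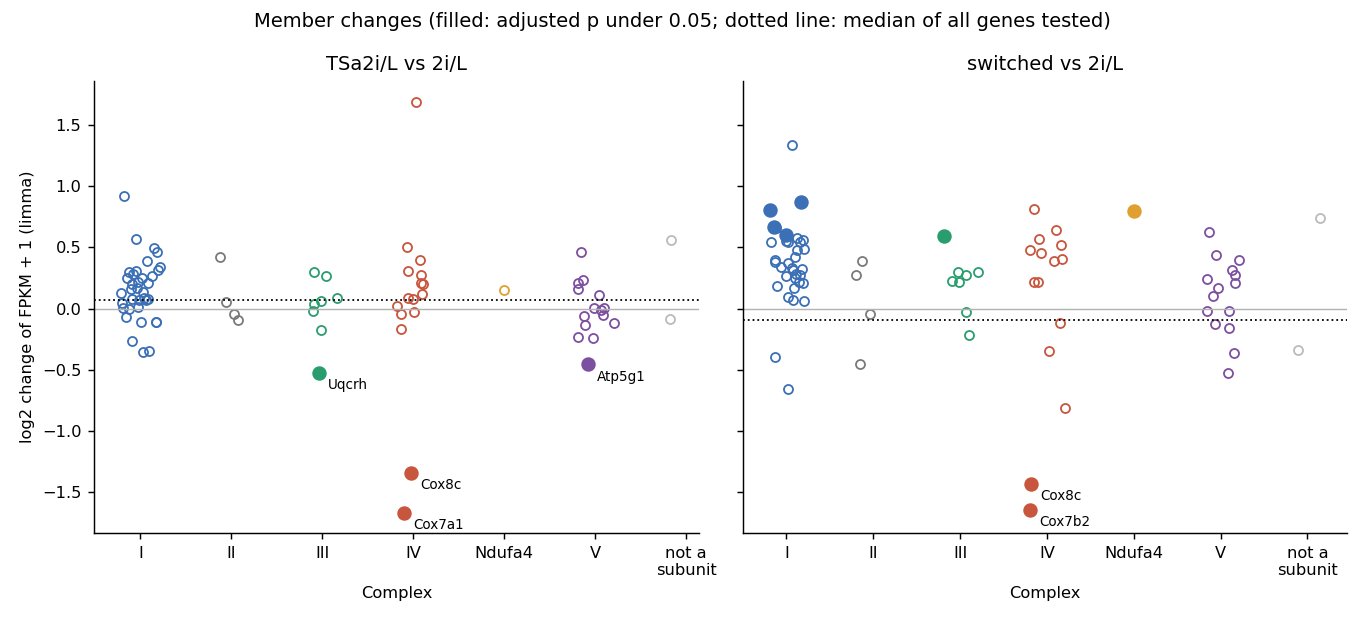
Change of each member on the log2(FPKM + 1) scale by complex, for TSa2i/L against 2i/L (left) and for switched against 2i/L cells of the same lines (right); filled points passed an adjusted p of 0.05 and the dotted line is the median of all genes tested (0.07 and −0.09). On the right 34 of 36 complex I members lie above 0.

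After the switch 4 members of complex I, Ndufa4 and Uqcrq were called higher, and Cox7b2 and Cox8c lower. The fibroblast markers summed to 63.7 to 71.7 FPKM in the 3 switched libraries and to at least 106.8 in every other library. Most of each sum was Sparc (46.88 to 54.001 FPKM, against 97.95 to 255.1), and the lower sum followed this gene. Of the 15 markers 3 could be tested, 1 called higher (Fstl1) and 1 lower (Sparc). Fstl1 went from 6.797, 2.543 and 2.789 FPKM in 2i-14 p50, 2i-O48 and 2i-O48-TKO to 11.963, 9.499 and 7.430. Mfap5 was lower after the switch in 2i-14 and higher in 2i-O48 and 2i-O48-TKO. A fall of fibroblast RNA as a whole is thus not shown. Of the 10 pluripotent-cell markers Nanog was called lower (−0.93, limma adjusted p = 0.0483). The part of these in the members' change was not tested. Each switched library was set against the 2i/L library of its own line (p50 for 2i-14), the line entering the model as a block, so this comparison and the preceding one share the 2i-14 p50 library. Of 81 members tested 8 passed, 6 higher and 2 lower, while of 9759 genes 672 passed, or 6.89%, with 2.22% higher and 4.66% lower. The median member change was 0.30 and that of all genes −0.09. The medians were 0.37 in complex I (34 of 36 members above 0), 0.11 in complex II (2 of 4), 0.25 in complex III (6 of 8), 0.39 in complex IV (10 of 15) and 0.16 in the ATP synthase (9 of 15). With median centring, which moved the median of all genes from −0.09 to 0.07, the member median was 0.47. The complex medians then ran from 0.28 (complex II) to 0.55 (complex IV). With quantile normalization the member median was 0.21. In this case complexes I, II and III stood at 0.29, 0.06 and 0.14. Complex IV was at 0.11 (8 of 15 above 0), and the ATP synthase median turned to −0.05 (7 of 15). The members called numbered 2 and 3 under these scalings, and 1 of 2 and 0 of 3 of them were higher.

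Ndufb6, Ndufb3 and Ndufb9 are accessory subunits of the membrane arm of complex I. Ndufb6 was at 1470, 967 and 1130 FPKM in 2i-14 p50, 2i-O48 and 2i-O48-TKO and at 2044, 2300 and 2102 after the switch. The switched values lay above all 5 libraries in 2i/L, and the log2 change was 0.87 (SE 0.17, limma adjusted p = 0.0381). Ndufb3 went from 528, 474 and 494 to 826, 814 and 732 FPKM (0.66, limma adjusted p = 0.0431). Ndufb9 went from 1380, 1106 and 1160 to 1843, 1758 and 1913 FPKM (0.60, limma adjusted p = 0.0483). In these genes too no switched library overlapped any 2i/L library.

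Ndufs4, which is needed for a stable electron input arm of complex I, was at 193, 133 and 160 FPKM before and 293, 270 and 278 after the switch (0.80, SE 0.16, limma adjusted p = 0.0425). Ndufa4 was at 2380, 1571 and 1801 FPKM before and 3234, 3342 and 3264 after (0.80, SE 0.15, limma adjusted p = 0.0369). Uqcrq, the small subunit of complex III beside cytochrome b, was at 1411, 1776 and 1801 before and 2091, 2750 and 2699 after (0.59, SE 0.12, limma adjusted p = 0.0374). All 3 were higher in each pair, and the switched libraries were also above the earlier passages of 2i-14. Each of these 6 calls was lost when the 2i-O48-TKO pair was left out, where 1 other member passed and the 6 changes were 0.54 (Ndufb9) to 0.86 (Ndufb6). Each was also lost with no filter and with quantile normalization, where the changes were 0.30 (Uqcrq), 0.39 (Ndufb9), 0.53 (Ndufa4), 0.60 (Ndufb3), 0.65 (Ndufb6) and 0.74 (Ndufs4), and all but that of Ndufs4 with median centring. Leaving out the 2i-14 pair gave 26 calls (24 higher) and the 2i-O48 pair 12 (8 higher). With all 3 passages of 2i-14 as its control, 21 members passed, 18 of them higher.

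Cox7b2, known as a testis-type relative of Cox7b, was at 5.11, 23.2 and 32.7 FPKM before the switch and at 2.14, 5.32 and 7.27 after it. The log2 change was −1.64 (SE 0.27, limma adjusted p = 0.0254, or an adjusted p of 0.14 with no block). The call was also lost without the 2i-O48-TKO pair (−1.45, limma adjusted p = 0.153) and with no filter (−1.64, adjusted p = 0.155). It was lower in all 3 pairs, but the switched DMR-deleted libraries reached the level of wild-type 2i/L cells (6.57, 6.44 and 5.11) and overlapped with it. At its height Cox7b2 made up 2.76% of the Cox7b and Cox7b2 sum.

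Seen pair by pair, 42 of 81 members (20 of them in complex I and 9 in complex IV) were higher after the switch in all 3 pairs, where 19.4% of all genes were, and 8 were lower in all 3, where 29.4% of all genes were. The size differed between pairs, and those of 2i-O48 and 2i-O48-TKO may share an origin. The median member difference was 0.08 for 2i-14 (53 of 81 above 0), 0.55 for 2i-O48 (64) and 0.30 for 2i-O48-TKO (62), while the medians of all genes were 0.01, −0.17 and −0.10. Set against 2i-14 p18 or p39 in place of p50, the switched 2i-14 library gave member medians of 0.35 and 0.24. The 2i-O48 library in 2i/L had the lowest summed member FPKM of all 13 (54000, beside 59259 to 76315 in the other unswitched libraries and 73921 to 79875 after the switch). Without the 2i-O48 pair the median member change was 0.21, and the medians were 0.29 in complex I, 0.07 in complex II, 0.12 in complex III, 0.23 in complex IV and 0.04 in the ATP synthase.

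**Figure D5:**
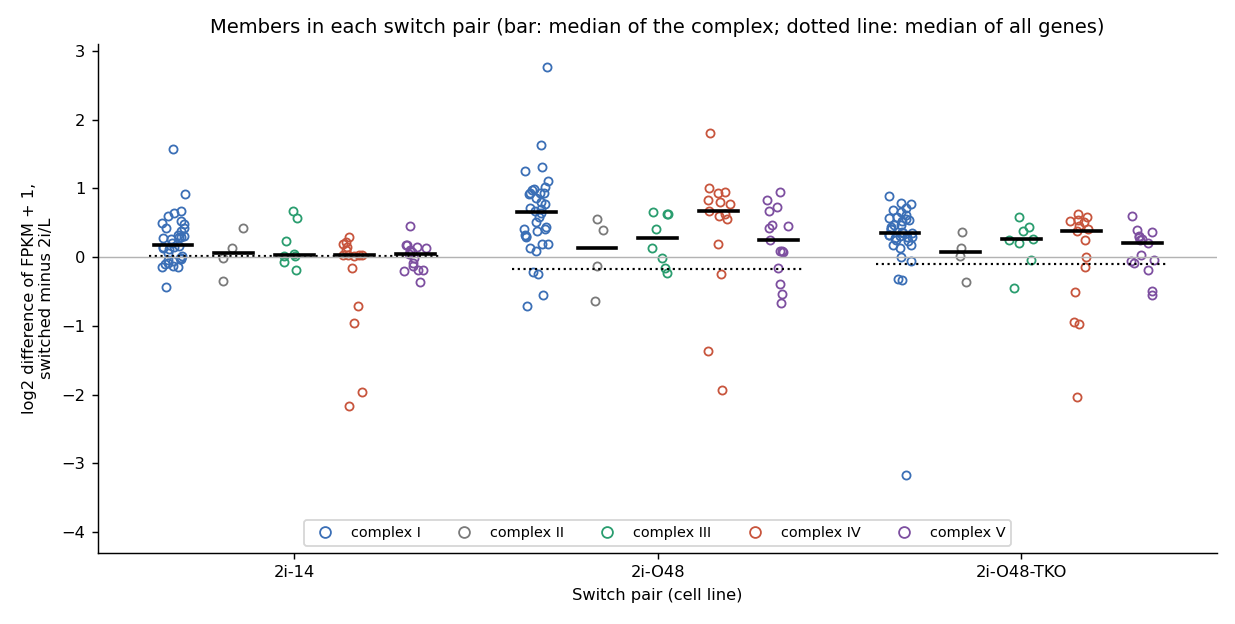
Log2 difference of FPKM + 1 between the switched and the 2i/L library of each line, 1 open circle per tested member of complexes I to V (Ndufa4, Atp5s and Atp5sl are not drawn); bars are complex medians and dotted lines the median of all genes tested. The member medians are 0.08 (2i-14), 0.55 (2i-O48) and 0.30 (2i-O48-TKO).

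Among the 8 members lower in all pairs were Atp5b, Atp5d, Atp5g1, Atp5sl, Cox7b2, Cox8c and Sdha. Atp5b was at 1466, 1414 and 1563 FPKM before and 1140, 892 and 1070 after the switch, below all 10 other libraries. The log2 change of −0.52 (SE 0.13) had a limma adjusted p of 0.0676. Sdha went from 63.7, 67.6 and 77.8 to 49.6, 42.9 and 60.6 FPKM (−0.45, limma adjusted p = 0.177). Ndufs1 and Ndufv1 had changes of 0.06 and 0.21 and were higher in 2 of 3 pairs, as was Uqcrc1 (0.22). Sdhb, in contrast to Sdha, was higher in all 3 pairs, at 596, 475 and 546 before and 796, 626 and 702 after (0.39, limma adjusted p = 0.133). Cox6a1 was too, at 3384, 1816 and 2530 before and 4148, 3650 and 3899 FPKM after (0.64, limma adjusted p = 0.0649).

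Transcript length went with the change after the switch. Over the 81 members tested Spearman's rho between length and change was −0.29, and over 9052 genes with a length it was −0.10; genes of 1 library share its RNA and depth, so no p is given. Members of up to 500 bp had a median change of 0.30 (n = 11), those of 500 to 1000 bp 0.38 (n = 44), those of 1000 to 2000 bp 0.22 (n = 20) and those over 2000 bp 0.07 (n = 6). For all genes of the same classes the medians were 0.04, 0.08, −0.11 and −0.14. The members stood above all genes within each class, and the part of length in their change was not tested. The 82 genes of the cytosolic ribosome, also short and abundant, had a median change of 0.001 (41 above 0). It was 0.17 under median centring (64 above 0) and −0.12 without the 2i-O48 pair (20 above 0). Of these genes 1 (1.22%) was called lower, Rpl39l (−3.65, limma adjusted p = 0.00688), where 4.66% of all genes were. The 77 of the mitochondrial ribosome had a median change of 0.13 (54 above 0). It was 0.30 under median centring (65 above 0) and 0.19 without the 2i-O48 pair (61 above 0). Here 2 (2.6%) were called higher, Mrpl1 and Mrpl24, where 2.22% of all genes were. Neither count is a result about its list.

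The other genes of the pathway were counted in the same fits. Among 18 tested genes of the tricarboxylic acid cycle and pyruvate oxidation 5 were above 0 after the switch, the median change was −0.31 (−0.14 with median centring and −0.18 without the 2i-O48 pair) and 2 were called lower, beside the 4.66% of all genes: Idh2 (−0.91, SE 0.17, limma adjusted p = 0.0331) and Mdh2 (−0.57, SE 0.13, adjusted p = 0.04999), which make NADPH and NADH in the matrix. Mdh2 was also called lower in TSa2i/L (−0.61, SE 0.13, limma adjusted p = 0.0159). Of 42 assembly factors tested 1 (2.38%) was called higher after the switch, Ndufaf3 of complex I (1.11, SE 0.19, limma adjusted p = 0.0291), where 2.22% of all genes were. Of 43 tested in TSa2i/L 2 were called higher, Lyrm7 of complex III (1.06, adjusted p = 0.00599) and Ndufaf7 of complex I (0.80, adjusted p = 0.0245), and none lower; this is 4.65%, beside 5.72% of all genes, so neither count is a result about the list. None of the 15 regulators of mitochondrial gene expression (Nrf1, Gabpa and Tfam among the list) passed in either comparison, nor did any of 10 further subunits and electron carriers such as Cyc1, Cycs and Ndufab1. Mitochondrially encoded subunits are not analysed here.

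Within TSa2i/L no difference was called between the 2 lines, of which only TSa2i-14 is listed with actin-EGFP. Between TSa2i-C57 (n = 2) and TSa2i-14 (n = 3) limma called none of 10502 genes (0%) and no member. At an unadjusted p under 0.05 there were 366 genes, 4 of them members. The groups did not overlap in 10 of 82 members, 6 higher and 4 lower in TSa2i-C57, where 15.9% of all genes were separate, 8.39% higher and 7.55% lower. All 16 complex IV members tested were above 0 (median of 0.24), while with quantile normalization 15 were. Without TSa2i-C57 p9 11 of 16 were above 0 and the median was 0.10, so that this count rests on that library. The median over all members was 0.07 and turned to −0.10 without TSa2i-C57 p9. Cox7a1 had the smallest p of the members, with a mean of 100 ± 7.47 (SD, n = 2) against 55.6 ± 9.06 FPKM (SD, n = 3) and a log2 change of 0.85 (limma adjusted p = 0.792). Cox6b2, a testis-type isoform of Cox6b1, was at 756 FPKM in TSa2i-C57 p9 and 342 to 432 in the other 4 libraries, which is 18.6% of the Cox6b sum against 11.1% to 14.5%. Ndufa5 of complex I was at 1007 and 896 FPKM in TSa2i-14 p47 and p54 and at 351 to 560.5 in the other 11 libraries, TSa2i-14 p22 (470) included; this gene was picked after its values were seen.

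In 2i/L the DMR-deleted lines (n = 2) differed from wild-type 2i-14 (n = 3) in 12 of 10164 genes (0.118%), none of them a member at an adjusted p of 0.05 with limma. Genotype and cell line cannot be told apart in this comparison, and the deleted lines may share an origin. At an unadjusted p under 0.05 there were 4 members among 589 genes. Cox7b2 came closest. It was at 23.2 and 32.7 FPKM in 2i-O48 and 2i-O48-TKO and at 6.57, 6.44 and 5.11 in 2i-14, a log2 change of 2.03 (SE 0.25, limma adjusted p = 0.0531, or an adjusted p of 0.0402 with genes of a mean of at least 5 FPKM only). The groups did not overlap in 13 of 81 members, 3 higher and 10 lower in the deleted lines, where 19.6% of all genes were separate, 11.9% higher and 7.74% lower. The median member change was −0.06, beside 0.03 over all genes. It was −0.007 without 2i-O48 and −0.16 without 2i-O48-TKO, so the value rests on which library was left out.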

How the data were processed

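RNA of 13 of the 41 samples of the series was sequenced by the authors from small numbers of haploid cells after full-length amplification. Per the submitters' processing notes, TopHat2 2.0.11 with Bowtie2 2.2.2 and Cufflinks 2.2.1 were used with build mm9, and the authors deposited 1 FPKM value per gene row; gene annotation and handling of reads that match several places are not given in the sources used here, so members with near-identical pseudogene copies are uncertain. Rows were summed per symbol (24525 rows, 24028 symbols; every member had 1 row). Coordinates in mm9 came from GENCODE vM1 for 82 members, and lengths are medians over its transcripts.

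Log2(FPKM + 1) was fitted with limma 3.58.1 (trend) in R 4.3.3 on genes at 1 FPKM or more in at least 3 libraries (TSa2i/L, switched) or 2 (lines, genotypes), with Benjamini-Hochberg adjustment over all genes tested and a threshold of 0.05. The fits were tested on simulated data. A fold change on this scale understates low genes. FPKM carries no counts, so no count test was run; counting error alone would be small for most members (Cox7a1, 276 to 3310 implied fragments). The cell line was the block of the switch comparison because the labels name the same line before and after.

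Members, lists, comparisons and alternatives were chosen with earlier results of these data known. Named members are those called, the highest and lowest of each complex, the 6 of widest range, 10 core subunits, isoform sets and Atp5s and Atp5sl. The values of 1 core subunit are not reported here. Alternatives were a pseudocount of 0.1, no filter, a mean of at least 5 FPKM, median centring, quantile normalization, the highest row of a symbol, no intensity trend, a change of at least 0.5, leaving out each library or pair, other controls and no block. Values were computed with Python 3.11.15.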

Additional observations from a re-analysis of the deposited data

Results flagged for a closer look

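In 3 of 40 named members, 1 of the 5 TSa2i/L libraries stood apart from the others, the gap to its neighbour being a larger share of the range than the 0.71 of Dixon's test. These were Ndufa4l2 in TSa2i-14 p47 (16.8 FPKM, gap of 0.847 of the range), Cox6b2 in TSa2i-C57 p9 (756 FPKM, 0.782) and Ndufs1 in TSa2i-14 p22 (80.3 FPKM, 0.745). For members picked blindly chance gives about 1 in 20 such groups, or 2 of 40. Ndufa4l2 was among the members named for their wide range, so nothing is concluded from this count.

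In 4 named members the switch went one way in wild-type 2i-14 and the other way in both DMR-deleted lines, as log2 differences of 1 pair each. Atp5h of the ATP synthase stalk had −0.19 (2i-14), 0.671 (2i-O48) and 0.252 (2i-O48-TKO), and Cox4i1 of complex IV had −0.153, 0.557 and 0.252. The Rieske protein Uqcrfs1 had 0.0424, −0.234 and −0.45, and Cox7a2l, counted in complex IV, had 0.0312, −0.241 and −0.138. These values take 2i-14 p50 as the control. From p18 the 2i-14 values were 0.0404 for Atp5h, 0.363 for Cox4i1, −0.0869 for Uqcrfs1 and −0.2902 for Cox7a2l, all in the direction of the deleted lines, and from p39 they were −0.1616, 0.1976, 0.1466 and −0.1766, opposite to the deleted lines for Atp5h and Uqcrfs1 only. Members that are not named also did so and were not counted. Among these, Ndufa13, Ndufs6, Uqcrb and Atp5e were lower in 2i-14 from p50 and higher in both deleted lines, and Atp5a1 was the other way round. The difference between genotypes, which are also different lines, was not tested, since wild-type cells have 1 pair.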

How the results depend on the processing

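For TSa2i/L against 2i/L, 4 members passed; the count was 2 with no filter on low values, 2 (1 higher, 1 lower) without the 3 libraries high in fibroblast RNA, which was chosen after seeing the data, and 9 (5 higher) with the DMR-deleted libraries added to 2i/L. Leaving out 1 library gave 2 to 6, with 2 when any passage of 2i-14 was left out. After the switch 8 passed; the count was 0 with no filter (of 18837 genes 0 passed), 2 with median centring, 3 with quantile normalization, 2 with no intensity trend and 21 where each 2i-14 passage served as control. Leaving out 1 pair gave 1 to 26. Without the cell line as a block 10 passed, 8 of them higher, and Uqcrq (limma adjusted p = 0.0533) and Cox7b2 (0.14) lost their calls while Atp5b (0.0499) gained one. The pairing is the cell line named in the labels. The median change after the switch was 0.465 with median centring. Between the TSa2i/L lines it ran from −0.102 to 0.214 when 1 library was left out, and between the DMR-deleted lines and 2i-14 from −0.161 to −0.00658. In the latter comparison 1 member, Cox7b2, passed among genes of a mean of at least 5 FPKM. The cause of these shifts was not tested. Of the 19 single-gene changes recomputed none changed sign. Where 1 library remained in a group, it was assumed to vary like the others. FPKM without counts leaves the counting error of members near 1 FPKM known only through the implied fragments.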
